A study of Mus musculus with 6 samples.

Results

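The genes of mitochondrial complex I were followed in hippocampus of ovariectomised mice with and without a royal jelly diet. They were taken as the protein-coding rows whose symbol begins with Nduf, 50 of 18110 protein-coding rows and of 32067 rows in all. Of these, 8 begin with Ndufaf and encode assembly factors, and 42 do not. Of the 42, 37 encode nuclear subunits of the complex, 7 core and 30 accessory, and 5 are related genes or copies (Ndufa4, Ndufa4l2, Ndufb4c, Ndufs6b and Ndufab1-ps). Another 3 rows with the same prefix are typed as pseudogenes and were left out.

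The libraries came from poly(A) RNA of the whole hippocampus of wild type female C57BL/6J mice, 6 libraries in 2 groups of 3, each labelled a biological replicate. The mice of both groups had both ovaries removed. Tissue was taken at 17 weeks of age. The OVX group was kept on a control diet from 8 weeks of age, and the OVX+RJ group on a diet with 1% royal jelly, eaten freely. Sham-operated mice are named in the protocol and are not analysed here, so no library has its ovaries in place. The comparison asks what the royal jelly diet changes in hippocampal RNA after ovariectomy.

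Complex I, NADH:ubiquinone oxidoreductase, is the entry point of the respiratory chain for electrons from NADH. A matrix arm holds the N module, which oxidises NADH on a flavin, and the Q module, which passes the electrons along iron-sulphur clusters to ubiquinone. A membrane arm, built as the ND1, ND2, ND4 and ND5 modules, pumps protons and contains the subunits encoded by mitochondrial DNA. The core subunits do the chemistry and are shared with bacteria, the accessory subunits surround and stabilise them, and the assembly factors join the modules and leave. Neurons draw much of their ATP from this chain.

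The 6 libraries held between 34718596 and 58163785 counts. The library OVX+RJ 1 stood apart a little, with a mean Pearson correlation to the other libraries of 0.983 across genes on the log2 CPM scale, against 0.986 to 0.987 for the rest. All 8 hippocampal neuron markers looked up were present, with Camk2a between 4053 and 4571 CPM. Values below are CPM, counts scaled to a common library total over all rows of the table, unless said otherwise, listed in the order of replicates 1, 2 and 3. In whole tissue, fewer cells of a type and less RNA per cell cannot be told apart.

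The sequences upstream of 3 members are shown because these had the lowest p among the members with a RefSeq window in the comparison below. The RefSeq windows of GRCm38.p6 run from 250 bases before to 50 after each gene's start, and 41 of the 50 members had one. The part before the start is printed, 5′ to 3′ on the gene's strand, for Ndufa11 at chr17:56717512-56717761 (+ strand), Ndufb1 at chr12:101975739-101975988 (- strand) and Ndufs5 at chr4:123718187-123718436 (- strand). Capitals mark matches to the motif of NRF1 on either strand, whose letters they show and in which one inner base was left free. NRF1 is a transcription factor known for respiratory chain genes. The stretch of Ndufb1 holds none.
Ndufa11: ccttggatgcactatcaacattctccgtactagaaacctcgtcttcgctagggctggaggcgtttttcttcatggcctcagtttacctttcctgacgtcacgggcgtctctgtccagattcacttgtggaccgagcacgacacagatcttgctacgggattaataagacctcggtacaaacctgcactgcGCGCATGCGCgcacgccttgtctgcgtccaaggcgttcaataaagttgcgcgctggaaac
Ndufb1: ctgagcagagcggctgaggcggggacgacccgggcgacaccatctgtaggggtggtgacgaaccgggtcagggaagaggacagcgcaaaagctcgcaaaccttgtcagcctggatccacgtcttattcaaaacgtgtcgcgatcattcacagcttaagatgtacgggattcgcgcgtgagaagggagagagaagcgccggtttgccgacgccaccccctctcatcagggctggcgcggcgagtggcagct
Ndufs5: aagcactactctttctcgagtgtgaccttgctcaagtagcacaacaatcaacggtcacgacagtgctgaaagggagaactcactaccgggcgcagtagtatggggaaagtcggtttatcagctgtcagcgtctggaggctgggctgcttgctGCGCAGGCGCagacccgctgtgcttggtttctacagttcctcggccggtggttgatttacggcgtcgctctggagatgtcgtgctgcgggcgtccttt

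The NRF1 motif, searched on both strands of the 300 bases, was found in 9 of 41 members (22.0%) and in 1402 of 27025 genes with a window (5.19%). The 9 were Ndufa5, Ndufa6, Ndufa8, Ndufa11, Ndufb4, Ndufs5, Ndufs6, Ndufaf4 and Ndufaf5. A motif of the zinc finger factor YY1, whose letters are the capitals in the second set below, was found in 5 members (12.2%) and in 0.755% of all genes with a window. CCGGAAG, the core of ETS factor sites, was in 6 members (14.6%, against 9.93%), and the CCAAT box, CCAAT, in 14 (34.1%, against 41.1%). Windows of gene starts with more than one entry were pooled for the gene, and none of these 4 motifs is contained in another. The members were limited to protein-coding rows, and the 27025 genes were not, so the shares are of unlike sets. A match describes the letters only, and binding was not measured. The YY1 matches all lay within the first 50 bases after the start. The capitals are the same in all 5 because these exact letters were searched for, so only the bases around them can differ. The 30 bases around each, with the motif in capitals, are printed for Ndufa9 at chr6:126849095-126849124, Ndufs4 at chr13:114388045-114388074, Ndufs6 at chr13:73328433-73328462, Ndufs7 at chr10:80249464-80249493 and Ndufaf8 at chr11:120098935-120098964.
Ndufa9: ttgtgggagAAGATGGCGGCcgccgtccgc
Ndufs4: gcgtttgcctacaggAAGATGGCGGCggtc
Ndufs6: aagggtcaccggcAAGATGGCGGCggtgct
Ndufs7: gccgaggccAAGATGGCGGCgctggcgggt
Ndufaf8: gcagggcccAAGATGGCGGCgccctcgaga

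The genes with the YY1 motif lay on both sides of 0. Of the 5 with the YY1 motif, Ndufa9, Ndufs4 and Ndufs7 had log2 fold changes of OVX+RJ against OVX of 0.10, 0.040 and 0.026, and Ndufs6 and Ndufaf8 of -0.060 and -0.21. Among those with the NRF1 motif the values ran from -0.26 for Ndufa11 to 0.064 for Ndufaf5. All 7 subunits with that motif were negative, as were 31 of all 37 subunits. Both assembly factors with it, Ndufaf4 and Ndufaf5, were positive, as were 3 of all 8 assembly factors. Of the 49 members tested, 38 were negative. None of these differences passed the test described next.

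No complex I gene was called different between the diets. In the quasi-likelihood test of edgeR, with Benjamini-Hochberg adjustment over 18629 genes, 0 of the 49 members that could be tested passed 0.05, as did 0 of all genes (0%). The lowest adjusted p among the members was 0.986. Ndufs6b, with 2 to 10 counts a library, was under the filter on low counts. At an unadjusted p under 0.05 there were 4 members lower in OVX+RJ, against 1.91% of all genes tested, and 0 higher, against 2.14%. The 4 were Ndufa11, Ndufb1, Ndufs5 and Ndufa2, all accessory subunits. The count was 1 without OVX 3 and 2 without OVX 1 or without OVX+RJ 3. By DESeq2 it was 3, by limma-voom 3, and again no member passed after adjustment.

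Most subunits had slightly lower values in OVX+RJ. Of the 37 subunits, 31 had a negative log2 fold change, where 50.4% of all genes tested did, and their median was -0.068 against -0.0015 for all genes. The sum of the 37 was 2233, 2303 and 2336 CPM on the control diet and 2205, 2183 and 2171 CPM on royal jelly. This gap depended on the scaling. With TMM factors, the mean log2 CPM of the 37, minus its mean over the 6 libraries, nearly met in OVX 1 (-0.0079) and OVX+RJ 1 (-0.0098). At 14 subunits every OVX+RJ library was below every OVX library, and at 1 subunit, Ndufa9, every one was above. Over all genes tested, 5.95% were parted downwards in this way and 4.53% upwards. With TMM factors applied to the same values, 11 subunits were parted downwards, against 5.17% of all genes. With a library left out, the number of negative subunits ran from 27 (without OVX 2) and 29 (without OVX+RJ 3) to 33 (without OVX+RJ 1). The median was -0.057 without OVX 3 and -0.10 without OVX 1 or without OVX+RJ 1.

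**Figure D1:**
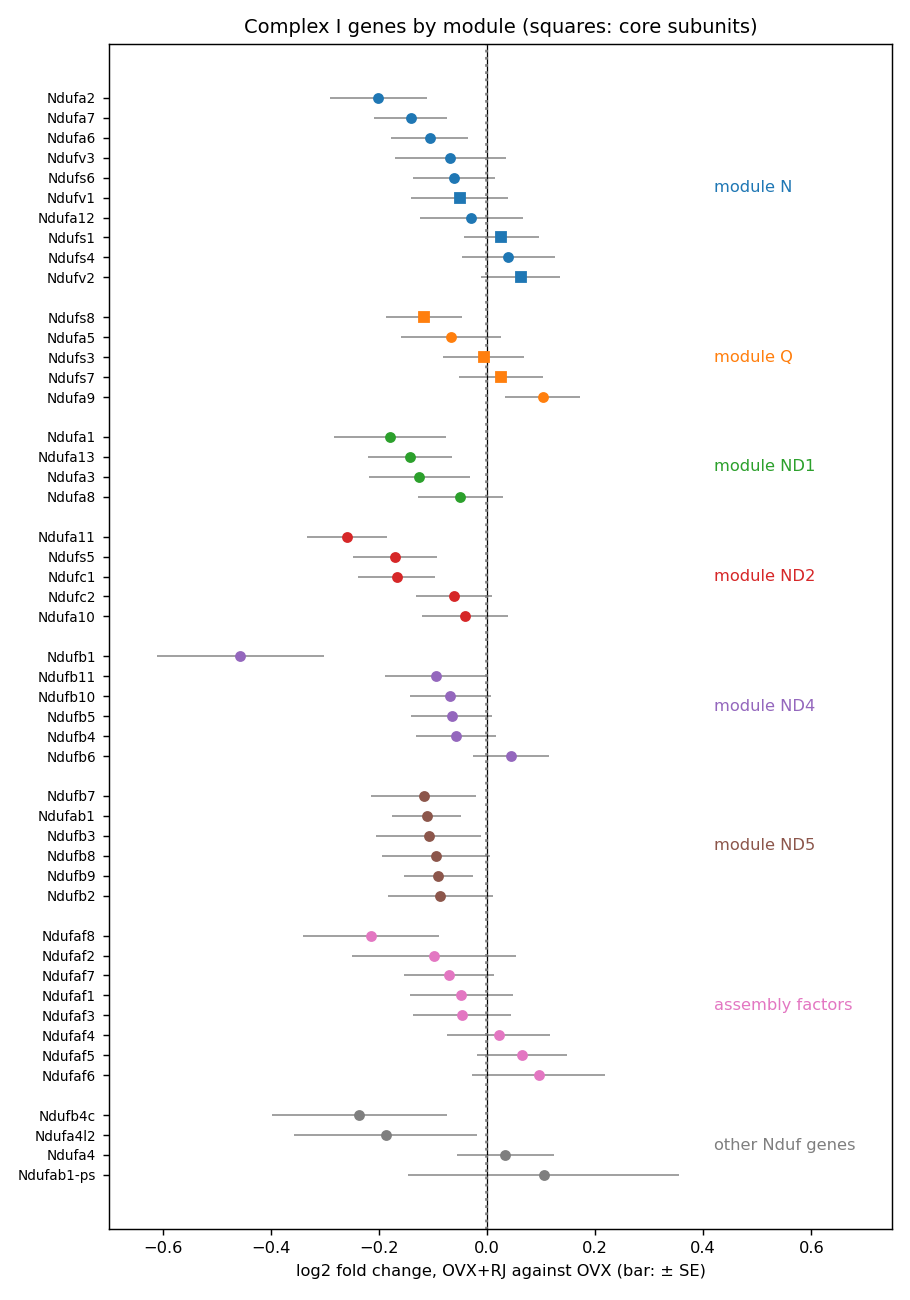
Log2 fold change of OVX+RJ against OVX (x axis, bars ± SE) for complex I genes that were tested, grouped by module, with core subunits as squares and the median of all genes as a dotted line. The membrane modules ND1, ND2 and ND5 lie wholly below 0, while the core subunits lie on both sides.

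The 7 core subunits encoded in the nucleus showed small differences. Of them, 4 were negative and 3 positive, with a median of -0.0062. Ndufv1, which binds the flavin that takes electrons from NADH, was at 118, 129.8 and 116 CPM on the control diet and 123, 109.9 and 116 CPM on royal jelly. Ndufv2, an iron-sulphur subunit beside it, was at 91.8, 94.4 and 99.3 CPM on the control diet and 101, 98.1 and 97.0 CPM on royal jelly. Ndufs1, the largest subunit and carrier of several clusters, was at 155, 159 and 159 CPM on the control diet and 164, 157 and 157 CPM on royal jelly. In these 3 subunits of the N module the groups overlapped, with log2 fold changes of -0.050 (SE 0.090), 0.062 (SE 0.073) and 0.026 (SE 0.070).

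In the Q module, electrons reach ubiquinone. Ndufs7, which carries the last cluster before ubiquinone, was at 40.4, 41.3 and 43.8 CPM on the control diet and 43.7, 42.5 and 40.7 CPM on royal jelly. Ndufs3, an early building block of the module, was at 71.9, 74.0 and 70.1 CPM on the control diet and 72.5, 73.4 and 67.4 CPM on royal jelly. Both overlapped widely, with log2 fold changes of 0.026 and -0.0062. Ndufs8, another cluster carrier, was the core subunit with the lowest p (0.125 unadjusted, adjusted p = 0.986 in edgeR). It was at 42.8, 45.9 and 45.8 CPM on the control diet and 39.9, 41.4 and 41.9 CPM on royal jelly, with every OVX+RJ library below every OVX library and a log2 fold change of -0.12 (SE 0.070).

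Among the accessory subunits of the matrix arm, none was called. In the N module 3 were parted downwards, as were 5.95% of all genes tested. Ndufa2, a small subunit with a thioredoxin fold at the N module, was at 30.3, 28.1 and 32.2 CPM on the control diet and 25.6, 28.0 and 24.6 CPM on royal jelly. This is 26.1 ± 1.71 against 30.2 ± 2.04 CPM (SD, n = 3 each), which gave a log2 fold change of -0.20 (SE 0.090, adjusted p = 0.986 in edgeR). OVX 2 and OVX+RJ 2 nearly met, and the groups did not overlap. Ndufa7, a small subunit of the matrix arm, was at 37.1, 37.7 and 39.3 CPM on the control diet and 32.9, 35.2 and 34.6 CPM on royal jelly, a log2 fold change of -0.14 (SE 0.068), and its groups did not overlap. Ndufa6, which docks the acyl carrier protein, had a log2 fold change of -0.11 and was parted in the same direction, while Ndufv3, Ndufs6 and Ndufa12 lay between -0.068 and -0.029 with overlapping groups. Ndufs4, known from a mouse model of Leigh syndrome, was at 0.040. The N module as a whole had 7 of 10 negative, with a median of -0.055.

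Ndufa9 had higher values on royal jelly. This Q module subunit binds a nicotinamide nucleotide near the joint of the arms. It was at 113, 118 and 122 CPM on the control diet and 124, 126 and 125 CPM on royal jelly, or 125 ± 0.638 against 117 ± 4.41 CPM (SD, n = 3 each), which gave a log2 fold change of 0.10 (SE 0.069, unadjusted p = 0.118, adjusted p = 0.986 in edgeR). The OVX+RJ libraries were close together and all above the OVX libraries, which were more spread. Its neighbour in the module, Ndufa5, was at -0.066 with overlapping groups, and 4 of the 6 Q module genes were negative, with a median of -0.033.

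**Figure D2:**
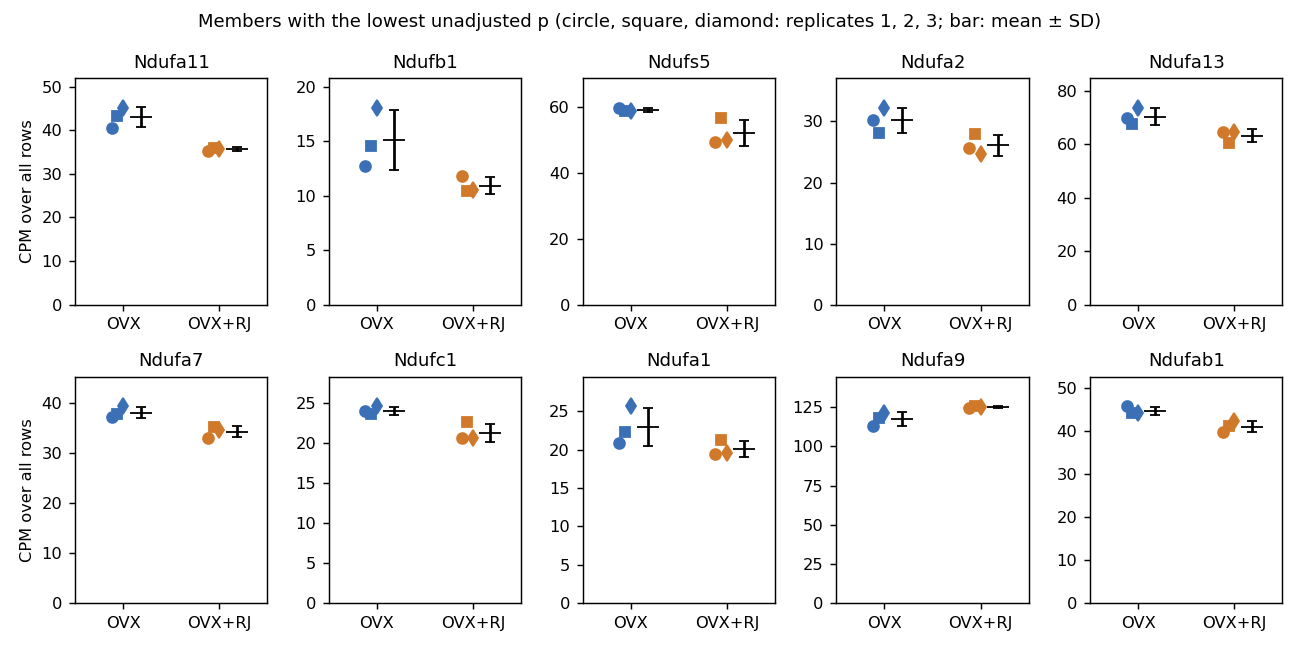
CPM over all rows in each library (y axes from 0; circle, square and diamond for replicates 1, 2 and 3; bars mean ± SD, n = 3) for the 10 members with the lowest unadjusted p. In 8 of the 10 the OVX+RJ libraries lie below every OVX library, in Ndufa1 the groups overlap, and in Ndufa9 OVX+RJ lies above. The 10 were picked by p in this same comparison, which favours groups that do not overlap. Of all genes tested, 5.95% were parted downwards and 4.53% upwards.

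The membrane arm had 20 of 21 nuclear subunits negative, with a median of -0.095, against 11 of 16 and -0.055 in the matrix arm. The 7 nuclear core subunits, with a median of -0.0062, all lie in the matrix arm, and all 21 of the membrane arm are accessory. Median transcript length was 718 bases in the membrane arm and 959.5 in the matrix arm. The difference in log2 fold change between the arms was not tested, nor was the part of subunit role or length in it. The ND2 module was lowest, with all 5 members negative and a median of -0.17. Its summed level was 315, 328 and 323 CPM on the control diet and 294, 301 and 296 CPM on royal jelly, without overlap. In Ndufa11, which lies where complex I meets complex III in the supercomplex, the values were 40.5, 43.3 and 45.1 CPM on the control diet and 35.2, 36.0 and 35.7 CPM on royal jelly. It had the lowest p of all members (0.00485 unadjusted, adjusted p = 0.986 in edgeR), at 35.6 ± 0.400 against 43.0 ± 2.32 CPM (SD, n = 3 each) and a log2 fold change of -0.26 (SE 0.075). Every OVX+RJ library was below every OVX library, and the OVX+RJ libraries were close together.

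Ndufs5, on the side of the intermembrane space, was at 59.8, 58.8 and 58.8 CPM on the control diet and 49.5, 56.8 and 50.2 CPM on royal jelly. The OVX libraries were close together and the OVX+RJ libraries were spread below them, with a log2 fold change of -0.17 (SE 0.078). Ndufc1, one of the smallest subunits, was at 24.0, 23.6 and 24.6 CPM on the control diet and 20.7, 22.6 and 20.6 CPM on royal jelly, parted in the same direction with -0.17 (SE 0.072). Ndufc2 and Ndufa10, the other two ND2 members, had log2 fold changes of -0.061 and -0.041 and overlapping groups.

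In the ND1 module all 4 members were negative, with a median of -0.13. Ndufa13, also known as GRIM-19 and as a regulator of cell death, was at 69.8, 67.6 and 73.5 CPM on the control diet and 64.5, 60.3 and 64.7 CPM on royal jelly, a log2 fold change of -0.14 (SE 0.078) with no overlap. Ndufa1, which is needed early in assembly and lies on the X chromosome, was at 20.9, 22.3 and 25.7 CPM on the control diet and 19.5, 21.3 and 19.6 CPM on royal jelly. OVX+RJ 2 lay above OVX 1 in Ndufa1, so the groups overlapped, and OVX 3 was the highest library. Its log2 fold change was -0.18 (SE 0.10), or -0.084 without OVX 3, and that of Ndufa3 and Ndufa8 was -0.13 and -0.049.

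The ND4 module held the member with the largest difference. Ndufb1, a small subunit that crosses the membrane, was at 12.7, 14.6 and 18.1 CPM on the control diet and 11.8, 10.5 and 10.5 CPM on royal jelly, or 10.9 ± 0.788 against 15.1 ± 2.73 CPM (SD, n = 3 each). Its log2 fold change was -0.46 (SE 0.15, unadjusted p = 0.00905, adjusted p = 0.986 in edgeR). OVX 3 was the highest library, and without it the log2 fold change was -0.30. The gene is also the least certain of the subunits: GENCODE M21 lists it as Ndufb1-ps, a noncoding transcript of a shared promoter whose exons overlap Cpsf2 on the other strand. The other 5 ND4 members lay between -0.095 for Ndufb11 and 0.045 for Ndufb6, and 4 of them were negative.

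In the ND5 module all 6 members were negative within a narrow range, from -0.12 for Ndufb7 to -0.086 for Ndufb2. The summed level of the module was 349.8, 355 and 361 CPM on the control diet and 334, 331 and 323 CPM on royal jelly. Ndufab1, the mitochondrial acyl carrier protein that also serves fatty acid synthesis, was at 45.7, 44.0 and 44.1 CPM on the control diet and 39.7, 41.0 and 42.1 CPM on royal jelly, with every OVX+RJ library lower and a log2 fold change of -0.11 (SE 0.064). Ndufb9 was parted in the same way, with -0.090, and in Ndufb2, Ndufb3, Ndufb7 and Ndufb8 the groups overlapped.

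The 8 assembly factors showed no common direction: 5 were negative and 3 positive, with a median of -0.047. The groups overlapped in all 8, as in most genes tested, of which 5.95% were parted downwards and 4.53% upwards. Ndufaf1, a part of the MCIA complex that builds the membrane arm, was at 19.8, 19.0 and 20.7 CPM on the control diet and 18.2, 21.2 and 17.7 CPM on royal jelly. Ndufaf3 and Ndufaf4 bind each other on the early Q module. Ndufaf3 was at 17.1, 19.3 and 17.2 CPM on the control diet and 17.9, 17.5 and 16.2 CPM on royal jelly, and Ndufaf4 at 33.5, 33.7 and 37.0 CPM on the control diet and 36.7, 36.2 and 32.0 CPM on royal jelly. The log2 fold changes of these 3 were -0.048, -0.047 and 0.022, each smaller than its SE.

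Some of these factors are enzymes, or their partners, that modify Q module subunits. Ndufaf5, which hydroxylates Ndufs7, was at 20.5, 23.1 and 20.6 CPM on the control diet and 20.9, 23.0 and 22.8 CPM on royal jelly. Ndufaf8, a small protein that holds Ndufaf5 steady, was at 8.24, 7.39 and 6.23 CPM on the control diet and 5.98, 5.87 and 6.85 CPM on royal jelly. The log2 fold change of Ndufaf8 was the lowest of the assembly factors, at -0.21 (SE 0.13), while its partner Ndufaf5 was at 0.064 (SE 0.083). The lowest OVX library of Ndufaf8, OVX 3, lay under OVX+RJ 3. Without OVX 1 its value was -0.13, and Ndufaf2 was then lower, at -0.15. Ndufaf7, a protein arginine methyltransferase, was at 34.2, 32.8 and 36.8 CPM on the control diet and 30.6, 34.9 and 32.7 CPM on royal jelly, a log2 fold change of -0.070 (SE 0.083).

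Ndufaf2, a paralogue of Ndufa12 that acts when the N module is attached, was at 11.1, 11.3 and 13.3 CPM on the control diet and 9.04, 11.0 and 13.1 CPM on royal jelly. Its OVX+RJ libraries were widely spread, with OVX+RJ 1 lowest, and the log2 fold change was -0.098 (SE 0.15). Without OVX+RJ 1 it was 0.018, without OVX 3 -0.0045 and without OVX+RJ 3 -0.23. Ndufaf6, an early factor for the ND1 module, was at 4.87, 4.02 and 3.90 CPM on the control diet and 4.81, 4.67 and 4.05 CPM on royal jelly, a log2 fold change of 0.096 (SE 0.12), which ran from 0.037 without OVX+RJ 1 to 0.19 without OVX 1. The sum of the 8 was 149, 151 and 156 CPM on the control diet and 144, 154 and 145 CPM on royal jelly. The median of the 8 moved with single libraries: it was 0.0038 without OVX+RJ 3, -0.0069 without OVX 3, -0.026 without OVX+RJ 1 and -0.072 without OVX+RJ 2.

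**Figure D3:**
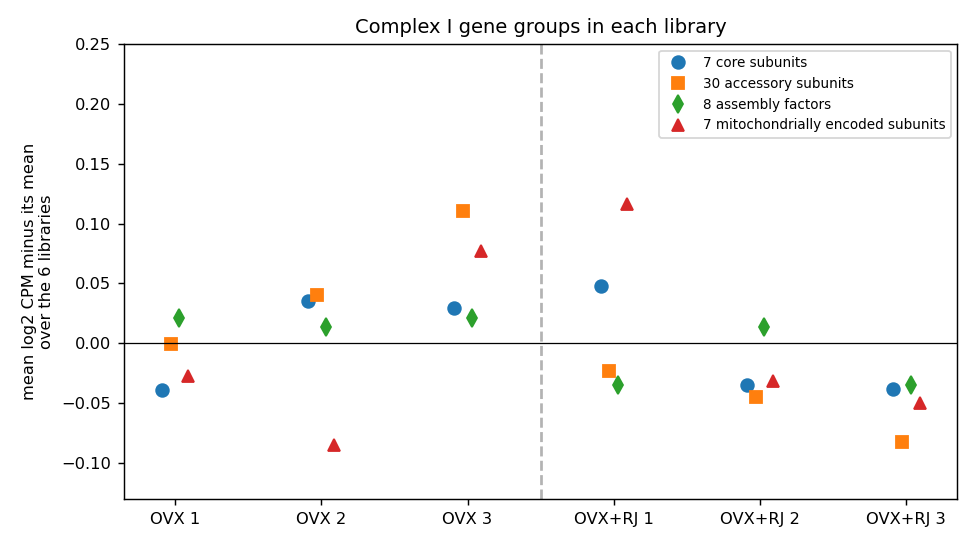
Mean log2 CPM of each gene group in each library, minus its mean over the 6 libraries (y axis), for core subunits, accessory subunits, assembly factors and the mitochondrially encoded subunits. Accessory subunits are highest in OVX 3 (0.11) and lowest in OVX+RJ 3 (-0.082), assembly factors are only just parted, and the core and mitochondrially encoded subunits overlap between diets.

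Per library, the mean log2 CPM of the 30 accessory subunits, set against its mean over the 6 libraries, was -0.00060, 0.041 and 0.11 on the control diet and -0.023, -0.045 and -0.082 on royal jelly. OVX 1 lay just above OVX+RJ 1, and OVX 3 was highest. For the 7 core subunits it was -0.039, 0.035 and 0.029 on the control diet and 0.047, -0.035 and -0.038 on royal jelly, where OVX+RJ 1 was the highest library. The plot of group means by library shows both.

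Related genes with the same prefix were counted apart. Ndufa4, once taken for a complex I subunit and now placed in complex IV, was at 133, 143 and 155 CPM on the control diet and 151, 145 and 142 CPM on royal jelly, a log2 fold change of 0.034 (SE 0.090). Ndufa4l2, a paralogue induced by low oxygen, was at 1.07, 1.38 and 1.20 CPM on the control diet and 0.831, 1.12 and 1.25 CPM on royal jelly, from 32 to 80 counts a library. Its groups overlapped, with -0.19 (SE 0.17), and without OVX+RJ 1 the log2 fold change was -0.047, without OVX 2 -0.082 and without OVX+RJ 3 -0.31. Ndufab1-ps had the largest positive log2 fold change, 0.11 (SE 0.25), on 24 to 47 counts a library. Its sign turned without OVX 2 (-0.049) and without OVX+RJ 2 (-0.17), and the values without each other library ran up to 0.27. It was at 1.01, 0.653 and 0.834 CPM on the control diet and 0.779, 1.19 and 0.665 CPM on royal jelly. Ndufb4c, a copy of Ndufb4, had -0.24 on 115 to 276 counts. Ndufab1-ps, Ndufb4c and Ndufs6b are typed as protein-coding in the deposited table and as processed pseudogenes in GENCODE M21, and their counts may come in part from the parent genes.

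Levels of different members were compared per kilobase of annotated transcript, for the 46 members with a length. Ndufa4 was highest, in CPM per kilobase, at 218, 235 and 254 on the control diet and 247, 238 and 233 on royal jelly. Among the subunits proper, Ndufb9 followed at a mean of 130.1 over the 6 libraries, then Ndufs5 at 106 and Ndufb10 at 101. The 36 subunits with a length lay between 12.3 for Ndufab1, whose annotated transcript is long (3479 bases), and 130.1, and all but Ndufab1, Ndufs4 and Ndufv3 were at 43.5 or more. The assembly factors lay below, from 4.05 for Ndufaf6 and 8.65 for Ndufaf8 to 19.2 for Ndufaf7, so that every subunit but Ndufab1 stood above every assembly factor in the mean. Ndufa4l2 was lowest, in CPM per kilobase, at 1.14, 1.47 and 1.29 on the control diet and 0.890, 1.20 and 1.34 on royal jelly. Neighbours in this order often differed by less than their spread over libraries, as Ndufs5 (94.4 to 114) and Ndufb10 (96.9 to 109.9) did.

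**Figure D4:**
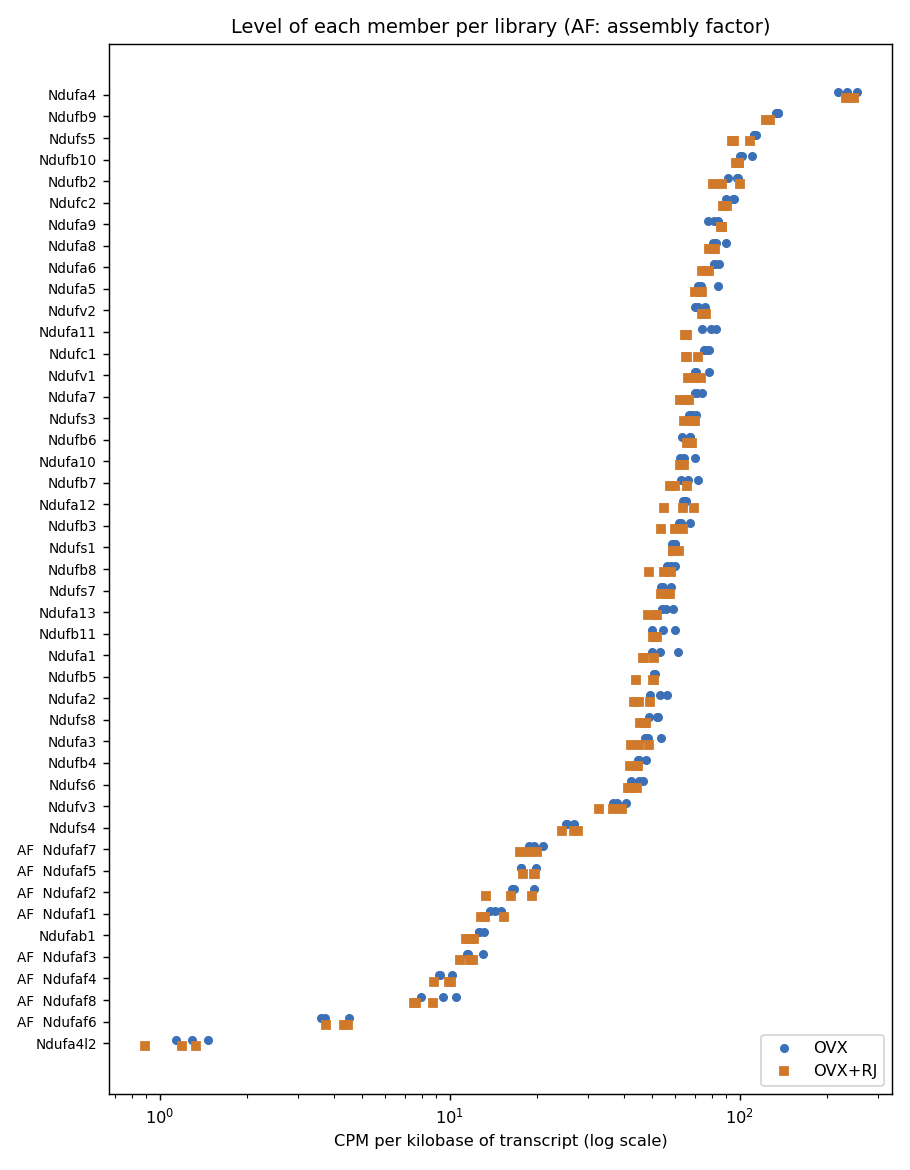
Level of the members shown, in each library, in CPM per kilobase of transcript (x axis, log scale), ordered by the mean, with OVX as circles and OVX+RJ as squares. Ndufa4 stands at the top at a mean of 237, and the assembly factors, with means from 4.05 to 19.2, lie below every subunit but Ndufab1.

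Lower values went with short transcripts, among the subunits and in the whole table. The median length was 704 bases for accessory subunits, 1312 for core subunits and 2949 for all protein-coding genes tested. Of the 14 subunits under 700 bases, 13 were negative, with a median of -0.12. All protein-coding genes of that length had a median of -0.090, with 193 of 274 negative. Without OVX 3 that median was -0.056. From 700 to 1200 bases the medians were -0.067 for 12 subunits and -0.047 for 1076 genes. From 1200 to 2000 bases they were -0.050 for 7 subunits and -0.016 for 2667 genes, and at 2000 bases or longer -0.041 for 3 subunits and 0.0082 for 10652 genes.

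Groups parted downwards in 44 of the 274 short genes, or 16.1%, and in 6 of the 14 short subunits. Per library, the short genes of the whole table stood at -0.027, 0.032 and 0.13 on the control diet and -0.067, -0.026 and -0.038 on royal jelly, with OVX 3 highest as in the accessory subunits. The part of transcript length in the complex I values was not tested. The value depends on which transcripts define the length: over all protein-coding transcripts of a gene, instead of those paired with a RefSeq record, 905 genes fell under 700 bases with a median of -0.031, while 17 subunits did with a median of -0.094.

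**Figure D5:**
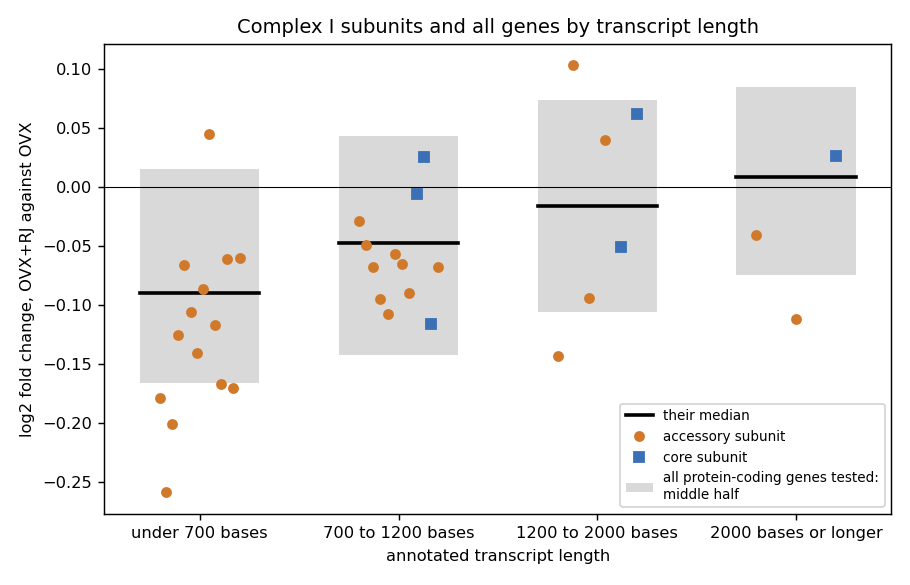
Log2 fold change of OVX+RJ against OVX (y axis) by class of annotated transcript length (x axis). Grey bars give the middle 50% and black lines the median of all protein-coding genes tested, from -0.090 in the shortest class to 0.0082 in the longest, and points give complex I subunits.

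The subunits of complex I encoded by mitochondrial DNA were described in the same way, with no test against the nuclear ones. Of mt-Nd1 to mt-Nd6 and mt-Nd4l, 5 of 7 were positive, their median log2 fold change was 0.053, and 0 were called. Their sum ran from 20095 to 21698 CPM on the control diet and from 20648 to 22926 CPM on royal jelly, highest in OVX+RJ 1, and the groups overlapped. Per library, their mean log2 CPM against its mean over all libraries stood at -0.027, -0.085 and 0.077 on the control diet and 0.12, -0.031 and -0.050 on royal jelly, so that OVX+RJ 1, the library that stood apart, was the one royal jelly library above 0. In mt-Nd1, mt-Nd4, mt-Nd5 and mt-Nd6, whose log2 fold changes were 0.079, 0.053, 0.083 and 0.055, OVX+RJ 1 was the highest of all libraries. Of 10 assembly factors with other names, 4 were negative, with a median of 0.022. Acad9, Ecsit and Tmem126b, which form the MCIA complex with Ndufaf1, had log2 fold changes of -0.033, 0.061 and -0.036. Among 9 regulators of respiratory chain genes 3 were negative and 0 were called. Nrf1 was at 0.028, Gabpa at -0.069, Yy1 at 0.033 and Ppargc1a at 0.12. The highest values of this list were 0.29 for Ppargc1b and 0.18 for Gabpb1, and the lowest was -0.11 for Esrra.

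Nuclear genes of the other respiratory complexes, all from lists chosen with earlier results known, lay on both sides. All 4 genes of complex II were positive, with a median of 0.046. In complex III 6 of 9 were negative (-0.044), in complex IV 10 of 10 (-0.10) and in ATP synthase 9 of 15 (-0.029). The complex IV list did not hold Ndufa4, which was positive (0.034). Groups were parted downwards in 0 genes of complex II, 1 of complex III, 7 of complex IV and 3 of ATP synthase, and upwards in 0. Over all genes tested 5.95% were parted downwards and 4.53% upwards. With TMM factors the downward counts were 0, 0, 4 and 2, against 5.17% of all genes. No gene among these 38 was called after adjustment, and no difference from complex I was tested.

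Of the marker lists of other cells, some shared a sign and some did not. The 5 endothelial markers were all negative. Their summed level was 178, 182 and 169 CPM on the control diet and 150.1, 149 and 133 CPM on royal jelly. The 6 myelin markers were all positive, with log2 fold changes from 0.038 to 0.13, each smaller than its SE. Their sums overlapped, from 2949 to 4868 CPM on the control diet and from 3554 to 4774 CPM on royal jelly. Of 7 choroid plexus markers, 5 could be tested and all 5 were positive on the log2 scale. Their median, 1.29, was the value of Otx2 (SE 1.11), at 0 to 1.03 CPM a library, and Folr1 was at 0.14 (SE 0.20). Kcnj13 and Aqp1, under the filter, had means of 0.200 and 0.182 CPM on the control diet and 0.165 and 0.184 CPM on royal jelly. Summed levels of the 7 ran from 24.8 to 35.0 CPM on the control diet and from 25.5 to 53.1 CPM on royal jelly. Much of that sum was Kl, with a log2 fold change of 0.00060, while Ttr, the transthyretin gene, ran from 1.87 to 8.49 CPM on the control diet and from 4.96 to 23.2 CPM on royal jelly (log2 fold change 1.32, unadjusted p = 0.0266), and Clic6 had 1.61 (unadjusted p = 0.0032). Both had an adjusted p of 0.986 in edgeR. The summed level of the 8 neuron markers ran from 5456 to 5704 CPM on the control diet and from 5091 to 5587 CPM on royal jelly. Of 4 astrocyte markers 2 were negative, with a median of -0.0089 and overlapping sums. Of 4 microglia markers 3 were negative, with a median of -0.063. The microglia sum was 188, 187 and 187 CPM on the control diet and 172, 184 and 173 CPM on royal jelly. The part of these cell types in the complex I values was not tested.

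Counts of some members may hold reads of other genes. In GENCODE M21, exons of 18 members overlap a gene on the opposite strand, among them Ndufa11 (Vmac), Ndufa2 (Tmco6), Ndufa13 (Tssk6) and Ndufa9 (1700018A23Rik), and the strand setting of the counting is not given in the sources used here. Exons of Ndufb9 (Gm49356), Ndufb8 (Gm20538) and Ndufb2 (Gm42420) overlap a gene on the same strand, which a strand setting would not separate. Ndufs5, Ndufa7, Ndufc1, Ndufa1 and Ndufs8 have no such overlap. The row Ndufa12-ps, a pseudogene left out of the members, held 9.33, 18.8 and 12.7 CPM on the control diet and 14.4, 17.2 and 9.42 CPM on royal jelly, so that Ndufa12 is uncertain as well.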

How the data were processed

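RNA-seq of 6 hippocampus libraries was used. The authors deposited expected counts per gene, and the submitters' processing notes name GRCm39 as the genome build and, as tools, StringTie 2.2.1, HISAT2 2.2.1, fastp 0.23.4 and bcl2fastq 2.19. The treatment of strand and of reads with several matches is not given in the sources used here. The deposited expected counts were rounded, which changed 51 rows, and 0 columns were left unmapped. Groups follow the labels, with 3 libraries each. The labels call each library a biological replicate without naming animals, so p-values measure only the spread between these libraries, which may be technical.

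Differences were tested in edgeR 4.0.16 (R 4.3.3) by the quasi-likelihood test with TMM scaling, filterByExpr and Benjamini-Hochberg adjustment at 0.05. SEs come from limma 3.58.1, fitted to log2 CPM (prior count 2). DESeq2 1.42.0, limma-voom, other scalings and filters, a replicate block and leaving out each library were alternatives. The code was tested on simulated data. Printed levels are CPM over all rows.

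Per-library values are given for the 10 members with the lowest p, the core subunits other than 1 that is counted in the group totals and not reported here by itself, the assembly factors, and the members with extreme levels per kilobase or fold changes. Members and lists were chosen with earlier results of these data known. The length classes and the motifs were also chosen after values had been seen. Transcript lengths are medians over the GENCODE M21 (GRCm38) transcripts paired with a RefSeq record. Lengths over all protein-coding transcripts were computed first and replaced because some were implausible, when results were already known. Motifs were also looked for in the 250 bases before the start before the whole windows were used. Depth was 34718596 to 58163785 counts a library, and members with few counts are given with their counts.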

Additional observations from a re-analysis of the deposited data

How the results depend on the processing

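No complex I gene passed the adjusted threshold in edgeR or under any of the 15 alternatives run. Over all genes, 0 were called higher and 0 lower in edgeR (754 at an unadjusted p under 0.05). DESeq2 called 10 higher and 2 lower (689 unadjusted), robust empirical Bayes 2 and 1, and limma-voom 0 and 0 (810 unadjusted). With one library left out, 0 to 7 were called higher, 7 without OVX+RJ 2, and 0 to 1 lower. Members lower at an unadjusted p under 0.05 numbered 1 to 4 with a library left out. Negative subunits numbered 27 to 33, with medians from -0.10 to -0.057. The assembly factor median ran from -0.072 to 0.0038 and reversed without OVX+RJ 3. The median of genes under 700 bases ran from -0.13 to -0.056 with a library left out and was -0.031 with lengths over all protein-coding transcripts, an alternative chosen after seeing the data. The cause of these shifts was not tested.

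With the replicate number as a block, 1 gene was called higher and 2 members were lower at an unadjusted p under 0.05. Libraries of the same number deviated together by correlations of 0.046, -0.0024 and 0.0031, and not every library correlated best with its own number, so the numbers were not taken as a pairing.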
